A study of Mus musculus with 8 samples.

Results

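Interferon-inducible GTPases are among the most strongly induced proteins of an interferon-treated mouse cell, and the transcripts of 10 of them were followed here in pancreatic ductal adenocarcinoma (PDAC) cells under inhibition of the kinase MEK. The 10 genes were picked by name from the 34478 gene symbols of the expression table: 6 immunity-related GTPases (IRG), namely Irgm1, Irgm2, Igtp, Iigp1, Ifi47 and Tgtp1, and 4 guanylate-binding proteins (GBP), namely Gbp2, Gbp2b, Gbp3 and Gbp7. RNA sequencing compared 4 primary murine PDAC lines, numbered #1, #3, #5 and #10, after culture with the solvent DMSO or after 48 h with the MEK inhibitor trametinib (MEKi). For every line and treatment 1 library was sequenced (8 in total), so the replicates of a treatment are the 4 lines. All lines, treated or not, come from a genetically engineered model that carries Ptf1awt/Cre and Trp53loxP/loxP, in which Cre from the Ptf1a locus, active in pancreatic progenitor and acinar cells, removes Trp53. Trametinib was dosed at the IC50 of each line, so the lines may have received different amounts, and cells grew in high-glucose DMEM with serum. The labels do not say whether the lines came from separate mice. In the main fit, p-values for MEKi against DMSO measure how unevenly that difference ran across these lines, not the spread of levels between them.

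IRG and GBP proteins are GTPases of the cell's own defense against microbes that live in vacuoles. Interferon gamma, and to a lesser degree type I interferon, switches their genes on through JAK kinases, STAT factors and IRF1, which read gamma-activated and interferon-stimulated elements in the promoters. Within the IRG family, Irgm1, Irgm2 and Igtp are regulators that sit on the cell's own membranes and hold their relatives inactive there, while Iigp1, Tgtp1 and Ifi47 are effectors that gather on the membrane around parasites and bacteria such as Toxoplasma and Chlamydia. GBPs belong to the dynamin superfamily, follow the IRG proteins onto these membranes and help to expose bacterial products to inflammasomes.

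The promoters are shown first because most of these genes share sequence motifs there. RefSeq promoter entries on GRCm38.p6, each from 250 bases before to 50 bases after a gene's start, matched 9 of the 10 genes by symbol. The search, on both strands, used a pair of GAAA separated by 2 bases of any kind, the core of an interferon-stimulated response element, and TTCNNNGAA, the core of a gamma-activated sequence. The first was found in 8 of the 9 genes and in 3.44% of all 32851 promoters, and the second in 4 of the 9 and in 8.30% of all promoters. Igtp, Irgm2, Tgtp1 and Gbp7 held both, as did 0.454% of all promoters, and the promoter of Ifi47 held neither in this window. In Igtp (chr11:58199497-58199555, plus strand), Irgm2 (chr11:58214888-58214947, plus strand) and Tgtp1 (chr11:48992289-48992348, minus strand) both motifs stood side by side without overlap, and the stretches around them are printed with both motifs in capitals.
Igtp: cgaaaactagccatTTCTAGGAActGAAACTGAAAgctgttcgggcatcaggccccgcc
Irgm2: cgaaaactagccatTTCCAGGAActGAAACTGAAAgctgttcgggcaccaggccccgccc
Tgtp1: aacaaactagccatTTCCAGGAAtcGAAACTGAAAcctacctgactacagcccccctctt

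The remaining 5 promoters with a match carried the first motif close to the start as well, in either orientation. They are Irgm1 (chr11:48871421-48871475, minus strand), Gbp2 (chr3:142620579-142620638, plus strand), Gbp2b (chr3:142594685-142594744, plus strand), Gbp3 (chr3:142559974-142560039, plus strand) and Gbp7 (chr3:142530258-142530317, plus strand), and capitals again mark the paired GAAA or its reverse complement. Irgm1 and Gbp3 each held 2 overlapping matches.
Irgm1: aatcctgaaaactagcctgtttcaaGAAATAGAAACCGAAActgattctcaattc
Gbp2: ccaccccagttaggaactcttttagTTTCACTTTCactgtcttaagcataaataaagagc
Gbp2b: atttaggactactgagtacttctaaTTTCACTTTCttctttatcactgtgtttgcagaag
Gbp3: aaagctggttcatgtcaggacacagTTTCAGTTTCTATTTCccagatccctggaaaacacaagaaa
Gbp7: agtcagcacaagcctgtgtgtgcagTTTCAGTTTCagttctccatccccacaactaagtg

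The map of motif positions shows that the matches gathered upstream of the start. The first base of the interferon-stimulated type lay at position -34 in Igtp, -64 in Irgm2, -77 in Tgtp1, -53 in Gbp7 and -59 in Gbp2, and farthest out in Gbp2b at -137. Gamma-activated matches began at -45 in Igtp, -75 in Irgm2 and -88 in Tgtp1, and at -106 and -87 in Gbp7. These matches describe the letters of the reference and say nothing of which factor was bound in these cells. Among relatives of the 10 genes, Gbp5, Tgtp2 and Gm12250 held both motifs and 9930111J21Rik1 the interferon-stimulated type, while Irgq, Gm5431 and 9930111J21Rik2 held neither.

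**Figure D1:**
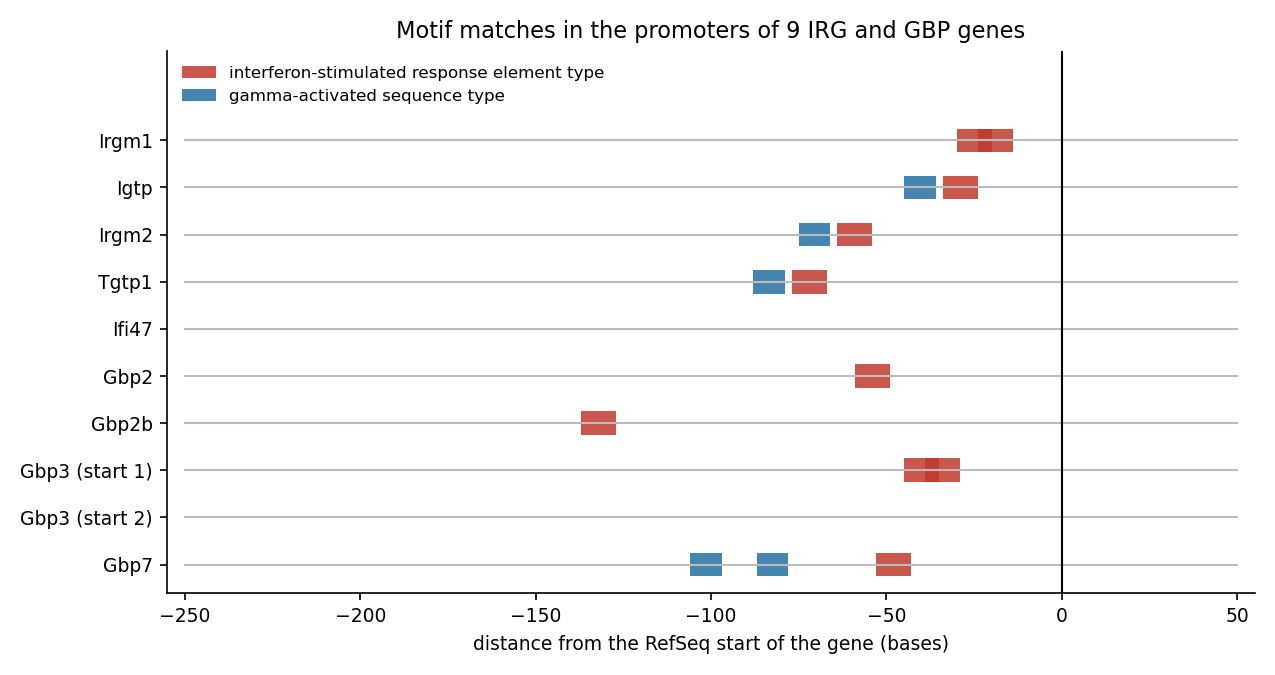
Position of motif matches (boxes, to scale) in the RefSeq promoters of 9 IRG and GBP genes, with distance in bases from the gene's start on the horizontal axis; Gbp3 has 2 annotated starts. Of these genes, 8 hold an interferon-stimulated type match and 4 also a gamma-activated type match, all upstream of the start.

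Normalized counts summed to between 30680091 and 36385719 per library. The smallest step between low values puts the depth at about 29300000 to 46000000 reads, at which 3 reads are worth 2.32 to 3.72 normalized counts, and this floor covers counting error only. A test was run for genes with a mean of at least 10 over the 8 libraries, which 15888 genes and 5 of the 10 GTPase genes reached: Irgm1, Irgm2, Igtp, Ifi47 and Gbp2. Gbp2 passed only through its MEKi libraries, since its DMSO mean was 8.57. Differences are given as log2((MEKi + 1)/(DMSO + 1)), which shrinks the change of low genes, and limma tested them with a block for each line. With MEKi, 4 of the 5 tested genes rose and none fell at an adjusted p under 0.05, where 27.3% of all tested genes were called higher and 25.6% lower. The groups did not overlap for Irgm1, Igtp and Irgm2, which means that every MEKi library stood above every DMSO library, as it did for 15.1% of all tested genes. The counts come from whole cultures, in which a change in the number of cells that use a gene and a change in RNA per cell cannot be told apart.

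**Figure D2:**
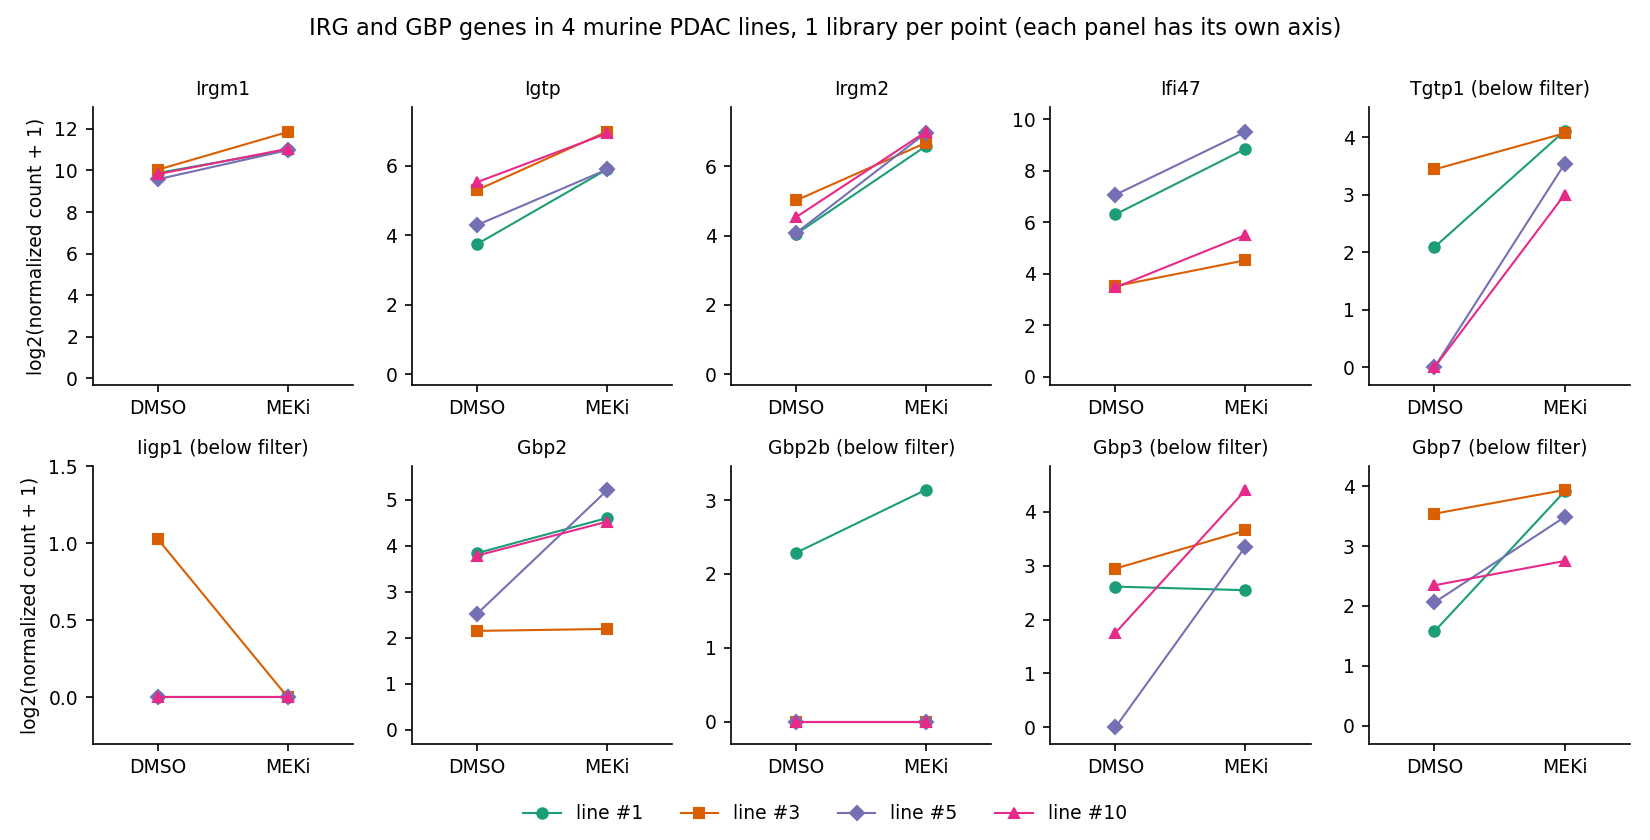
Level of each of the 10 genes as log2(normalized count + 1), with DMSO left and MEKi right in each panel, each panel on its own axis, and 1 point per library joined within a cell line. All 4 lines slope upward in each panel of the top row, whereas Iigp1 and Gbp2b lie at 0 except for the DMSO library of line #3 and both libraries of line #1.

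Irgm1, Irgm2 and Igtp, the regulators, all rose in 4 of 4 lines. Irgm1 was by far the most abundant of the 10 transcripts. It lies on the minus strand of chromosome 11 (chr11:48861968-48871683), and its normalized count with DMSO was 940.0 in line #1, 1049 in line #3, 763 in line #5 and 905 in line #10. With MEKi it was 2039, 3702, 2021 and 2112 in the same order. The DMSO libraries thus lay close together, and line #3 stood above the other 3 with MEKi. From a mean of 914 ± 118 to 2469 ± 823 (SD, n = 4 lines each), the log2 difference was 1.39 (standard error 0.13, adjusted p = 0.000495 in limma), a 2.62-fold rise.

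Irgm2 showed the largest fitted difference of the 5 tested genes, and its MEKi libraries lay close together. It stood at 15.5, 31.3, 15.9 and 22.2 normalized counts in the DMSO libraries of lines #1, #3, #5 and #10, and at 95.4, 102, 125 and 127 with MEKi. The means were 21.2 ± 7.40 and 112 ± 16.0 (SD, n = 4 lines each), a 5.26-fold rise with a log2 difference of 2.39 (standard error 0.28, adjusted p = 0.000857 in limma). Line #3, the highest with DMSO, had the smallest difference at 1.67, and line #5 the largest at 2.90.

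Igtp, also called Irgm3, was at 12.3, 38.2, 18.5 and 44.9 normalized counts with DMSO and at 58.3, 125, 58.2 and 120.5 with MEKi in lines #1, #3, #5 and #10. Lines #3 and #10 were the higher pair under both treatments. The log2 difference was 1.71 (standard error 0.24, adjusted p = 0.00161 in limma), or 3.27-fold, between means of 28.5 ± 15.5 and 90.5 ± 37.3 (SD, n = 4 lines each). Igtp (chr11:58199556-58207591) and Irgm2 (chr11:58199618-58222782) lie on the plus strand of chromosome 11, their exons share 162 bases, and 15.9% of the 31-base words of Igtp transcripts also occur in Irgm2, so some reads could have been given to either gene. Summed over both genes, the count went from 27.9, 69.5, 34.4 and 67.1 to 154, 227, 183 and 248, with a log2 difference of 2.09 (adjusted p = 0.000596 in limma).

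Among the effector IRG genes, Ifi47 rose, Tgtp1 was too low to test and Iigp1 was not detected above the floor. Ifi47, also known as Irgd (chr11:49076587-49096974, plus strand), was at 78.2, 10.5, 133 and 10.1 normalized counts in the DMSO libraries of lines #1, #3, #5 and #10. With MEKi it was at 462, 22.1, 731 and 44.5. Lines #1 and #5 were high and lines #3 and #10 low under both treatments, so the groups overlapped although each line was higher with MEKi than with DMSO. Its log2 difference was 2.01 (standard error 0.31, adjusted p = 0.00205 in limma), from 1.01 in line #3 to 2.55 in line #1. Without the block for the cell line, the spread between lines ended the call, with an adjusted p of 0.270 in limma.

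Tgtp1, or Irgb6, an early effector on parasite vacuoles, stood at 3.25 and 9.84 normalized counts in the DMSO libraries of lines #1 and #3 and was listed at 0 in lines #5 and #10. With MEKi it reached 16.2, 15.8, 10.6 and 7.01. It was therefore higher in 4 of 4 lines, at 4.99-fold in line #1 and 1.60-fold in line #3, and against a floor of 3 reads per library at least 2.85-fold in line #5 and at least 2.44-fold in line #10. Tgtp1 (chr11:48985327-48994172, minus strand) shares 83.2% of its 31-base words with its near copy Tgtp2, so its own share of the reads is uncertain. Summed with Tgtp2, the counts were 3.25, 9.84, 0 and 1.22 with DMSO and 18.3, 17.0, 17.2 and 7.01 with MEKi, which still misses the filter. Iigp1, or Irga6, the best studied effector, was listed at 0 in 7 of the 8 libraries and at 1.04, about 1 read, with DMSO in line #3, so no difference was detectable at this depth.

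The 4 GBP genes lie side by side on the plus strand of chromosome 3, from the start of Gbp7 at 142530342 to the end of Gbp2 at 142638008. Only Gbp2 was tested, and it did not pass. Gbp2, an abundant GBP of interferon-treated cells that is anchored to membranes by a lipid, was at 13.3, 3.44, 4.73 and 12.8 normalized counts with DMSO and at 23.3, 3.57, 35.9 and 22.0 with MEKi in lines #1, #3, #5 and #10. Its log2 difference was 1.06 (standard error 0.50, adjusted p = 0.114 in limma). The lines differed widely, from 0.04 in line #3 to 2.69 in line #5. Gbp2b, the mouse counterpart named Gbp1 in earlier work, was listed at 0 in all libraries except those of line #1, at 3.88 with DMSO and 7.84 with MEKi.

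Gbp3 was at 5.10, 6.69, 0 and 2.37 normalized counts with DMSO and at 4.83, 11.6, 9.22 and 20.1 with MEKi, higher in 3 of 4 lines, and in line #5 at least 2.48-fold against the floor. Gbp7, which has been tied to assembly of the phagocyte oxidase, was at 1.98, 10.6, 3.17 and 4.08 with DMSO and at 14.1, 14.3, 10.2 and 5.73 with MEKi, higher in 4 of 4 lines. In Gbp3 and Gbp7 the ranges of the treatments overlapped. Of the exonic length of Gbp7, 637 bases are shared with the pseudogene Gm43802 on the same strand. Summed over the 4 GBP genes, the normalized count was 18.1 ± 7.09 with DMSO and 45.7 ± 11.3 with MEKi (SD, n = 4 lines each), against 1025 ± 90.7 and 2998 ± 681 for the 6 IRG genes. Irgm1 alone made up 81.3% to 90.4% of the sum of all 10 genes in DMSO libraries and 67.4% to 92.6% in MEKi libraries.

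**Figure D3:**
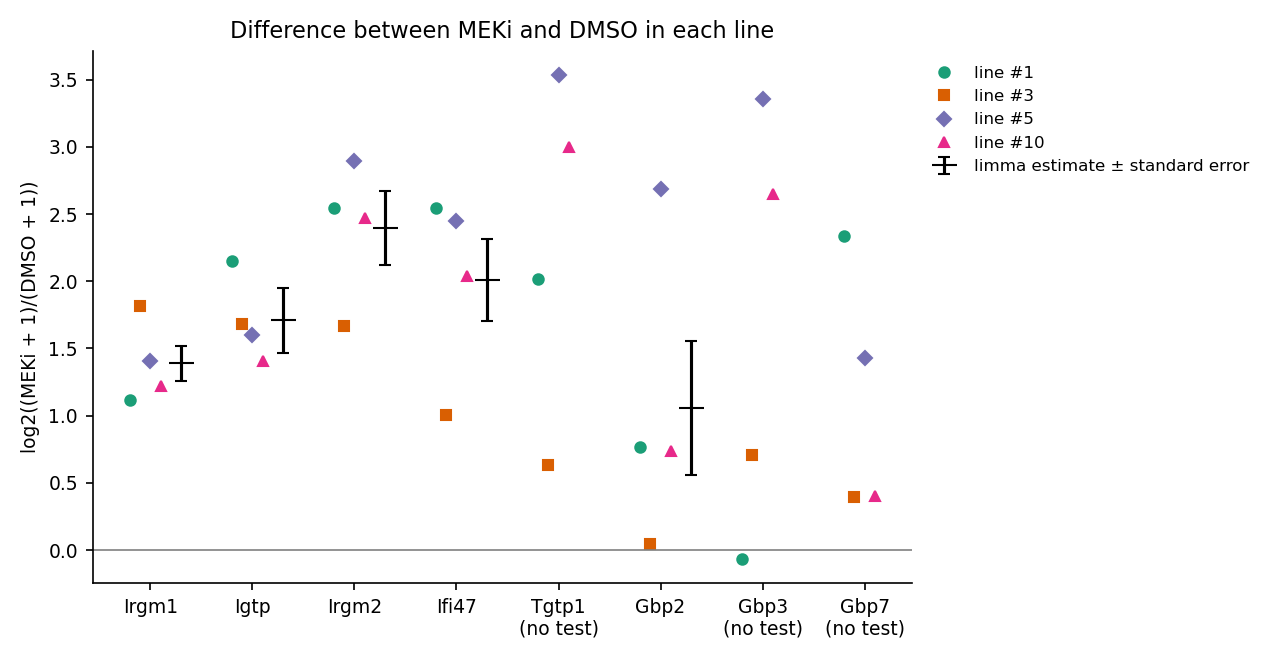
Difference between MEKi and DMSO on the log2((MEKi + 1)/(DMSO + 1)) scale for 8 of the 10 genes, with 1 symbol per line and, for tested genes, the limma estimate with its standard error in black. Irgm1, Irgm2, Igtp and Ifi47 lie above 1 in every line, whereas Gbp2 runs from 0.04 to 2.69; Iigp1 and Gbp2b are left out because they were listed at 0 in most libraries.

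Per kilobase of exon, which allows levels of different genes to be compared, the order with DMSO was Irgm1 at 157 ± 20.3, Ifi47 at 23.4 ± 24.0, Igtp at 14.1 ± 7.68, Irgm2 at 5.75 ± 2.01 and Gbp2 at 3.41 ± 2.07 normalized counts per kilobase (SD, n = 4 lines). With MEKi the order was the same, at 425 ± 142, 127 ± 139, 44.7 ± 18.4, 30.4 ± 4.34 and 8.43 ± 5.29. Every library of Irgm1 lay above every library of the others with the same treatment. Ifi47 and Igtp did not, since the SD of Ifi47 was as large as its mean, and the range of Irgm2 overlapped those of Igtp and Gbp2 with DMSO. Tgtp1, Gbp3 and Gbp7 were at 1.02 ± 1.45, 1.08 ± 0.907 and 0.885 ± 0.690 with DMSO and at 3.87 ± 1.38, 3.50 ± 1.96 and 1.97 ± 0.718 with MEKi. The plot of levels per kilobase places these genes beside their relatives.

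**Figure D4:**
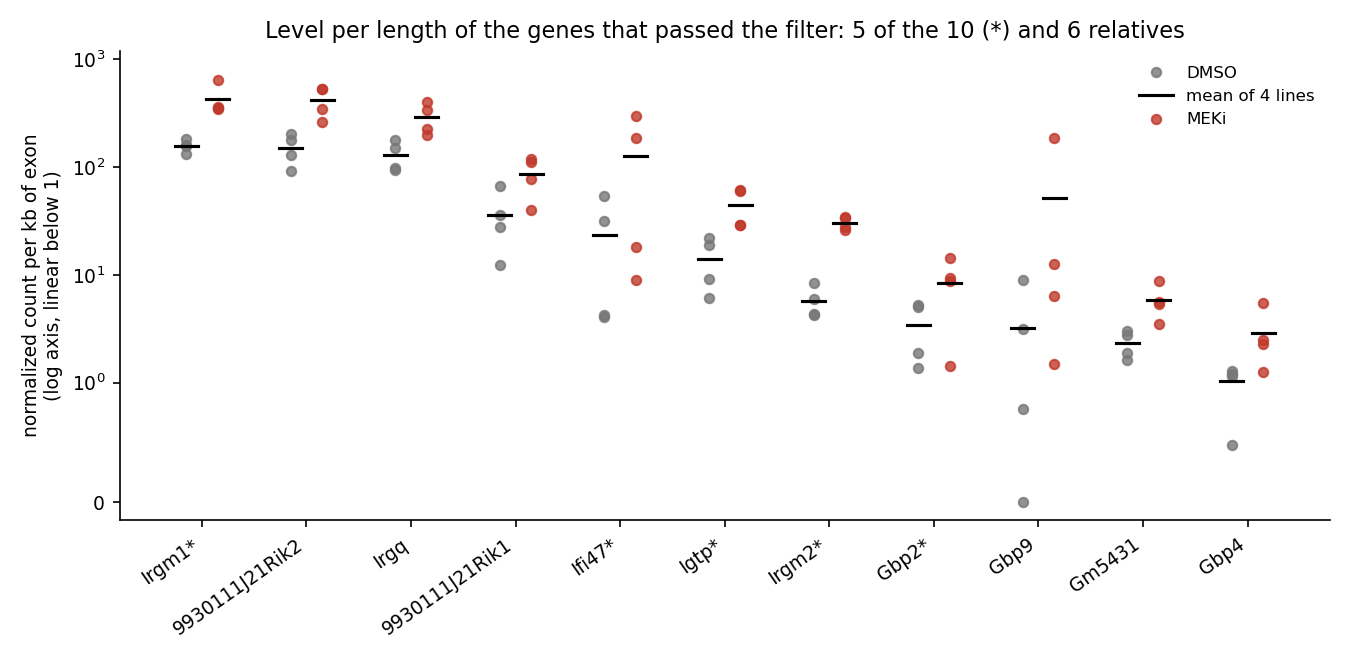
Normalized count per kilobase of exon, on a log axis that is linear below 1, for the 5 of the 10 genes (marked with an asterisk) and the 6 relatives that passed the filter; each point is 1 line and bars are means of 4 lines. Irgm1 lies at 157 with DMSO and 425 with MEKi, close to 9930111J21Rik2 at 151 and 415, and Gbp4 is lowest with DMSO at 1.03.

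Levels were also compared between the lines. In the same fit, Ifi47 differed between lines (adjusted p = 0.00290 in limma), with line #5 19.2-fold above line #3 over both treatments. Igtp also passed (adjusted p = 0.0414 in limma), with line #10 highest and line #1 lowest, 2.66-fold apart. That is 2 of the 5 tested genes, a count near the background, since 27.6% of all tested genes differed between lines. Lines #1 and #5 were the higher pair for Ifi47 and the lower pair for Igtp. The call for Igtp was lost without line #1, #3, #5 or #10 (adjusted p = 0.0959, 0.0521, 0.0700 and 0.112 in limma) and with Igtp and Irgm2 summed (adjusted p = 0.0910 in limma). Irgm1 (adjusted p = 0.0947), Gbp2 (adjusted p = 0.133) and Irgm2 (adjusted p = 0.612) did not pass in limma. Whether the size of the MEKi difference differs between lines was not tested, since each line has 1 library per treatment.

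Relatives of the 10 genes were taken from a list of 18 further IRG, GBP and giant GTPase genes, of which 6 reached the filter and all 6 rose with MEKi, beside 27.3% of all tested genes. Gbp4 and Gm5431 reached it only through their MEKi libraries, with DMSO means of 7.73 and 8.95, and both lost the call without a filter (adjusted p = 0.0609 and 0.0695 in limma) and with quantile normalization (adjusted p = 0.0872 and 0.131 in limma). Irgq, an IRG-like gene that lacks the usual GTPase motifs and lies on chromosome 7, was at 1094, 576, 917 and 591 normalized counts with DMSO and at 2424, 1199, 2053 and 1383 with MEKi. Its difference was even, from 1.06 to 1.22 per line, with a log2 difference of 1.15 (standard error 0.09, adjusted p = 0.000309 in limma). Next to Irgm1 and Tgtp1 on chromosome 11, 9930111J21Rik2 went from 1259, 643, 1425 and 903 to 3704, 1855, 3682 and 2419, a log2 difference of 1.47 (standard error 0.08, adjusted p = 0.000143 in limma). Its near copy 9930111J21Rik1 rose by 1.40 on the log2 scale (standard error 0.20, adjusted p = 0.00160 in limma). It shares 85.6% of its 31-base words with it, so the split between both is uncertain. Gm5431, from the same cluster and with 47.2% of its words shared, had a log2 difference of 1.20 (adjusted p = 0.0291 in limma).

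On chromosome 5, the second GBP cluster of the mouse, 2 genes passed. Gbp9 was at 4.04, 46.6, 0 and 16.2 normalized counts with DMSO and at 32.6, 964, 7.75 and 65.5 with MEKi in lines #1, #3, #5 and #10. Line #3 stood far above the other 3 with MEKi. It rose by 3.04 on the log2 scale (standard error 0.43, adjusted p = 0.00157 in limma). Its level differed between lines (adjusted p = 0.00478 in limma), with line #3 72.5-fold above line #5 after 1 was added to each value. That fold depends on the added 1, since line #5 was listed at 0 with DMSO. With 5 added instead of 1, the MEKi difference of Gbp9 was 2.34, and with 0.1 it was 3.91. Gbp4 went from 9.68, 9.07, 3.57 and 8.60 to 18.7, 41.3, 9.49 and 17.0, with a log2 difference of 1.27 (standard error 0.37, adjusted p = 0.0247 in limma). Gbp2 on chromosome 3 had its lowest MEKi value in line #3, while both genes on chromosome 5 had their highest there. Without the block, Gbp4, Gbp9, Gm5431 and 9930111J21Rik1 did not pass in limma, with adjusted p of 0.106, 0.173, 0.0611 and 0.0763.

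The pathway that controls these genes was followed in fixed lists, given as counts and medians beside the median of 0.07 over all tested genes. Of 10 interferon ligands listed, 4 were in the table and none of these 4 reached the filter. Ifng and Ifnb1 were listed at 0 in all 8 libraries, and Ifne, an interferon of epithelia, was at up to 44.9 normalized counts, in the DMSO library of line #3. Of 10 receptor, kinase and STAT genes, 8 rose and none fell, beside 27.3% and 25.6% of all tested genes, with a median log2 difference of 0.58. Without the block 5 rose, and Ifngr1, Jak1 and Jak2 did not pass (adjusted p = 0.148, 0.264 and 0.131 in limma). Stat2, a transcription factor of type I interferon signaling, went from 652 ± 140.2 to 1760 ± 191 (SD, n = 4 lines each), a log2 difference of 1.45 (adjusted p = 0.000229 in limma). Stat3 rose by 1.12 (adjusted p = 0.000488), Tyk2 by 0.67 (adjusted p = 0.00127) and the interferon gamma receptor chain Ifngr2 by 0.61 (adjusted p = 0.00230) in limma.

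Ifngr1, which encodes the ligand-binding chain of the interferon gamma receptor, moved less evenly. It had a log2 difference of 0.50 (adjusted p = 0.0300 in limma), higher in 3 of 4 lines, from 3874, 3530, 3577 and 2420 to 6617, 3330, 5362 and 4016. Line #3 was the line without a higher value. Of 10 transcription factors of GTPase promoters, 7 were tested, of which 2 rose and 2 fell, shares close to the 27.3% and 25.6% of all tested genes. Irf9, a DNA-binding partner of STAT2, rose by 0.76 (adjusted p = 0.00965 in limma). For Irf1 the log2 difference was 0.40 (adjusted p = 0.0488 in limma), and it lost the call in 9 of 14 alternatives. Batf2 went from 15.4, 65.6, 16.0 and 38.2 to 1.29, 1.38, 1.77 and 3.05 (log2 difference -3.38, adjusted p = 0.00160 in limma), and Irf2, a competitor of IRF1, fell by 0.45 on the log2 scale (adjusted p = 0.0174 in limma).

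Of 8 brakes on interferon signaling, 3 fell and 2 rose, again near the shares of all tested genes. Socs1, the feedback inhibitor of JAK kinases, went from 40.3, 33.3, 107 and 91.1 to 9.79, 16.9, 20.01 and 3.85, lower in 4 of 4 lines (log2 difference -2.37, standard error 0.53, adjusted p = 0.00909 in limma). The phosphatase gene Ptpn2 fell by 0.75 (adjusted p = 0.000954) and Socs3 by 0.69 (adjusted p = 0.00697) on the log2 scale in limma. Usp18, a brake on the type I receptor that is itself an interferon target, rose by 1.91 (adjusted p = 0.0149) and Pias1 by 0.46 (adjusted p = 0.0223) in limma. Usp18, with a DMSO mean of 5.24, passed the filter only through its MEKi libraries, and Batf2 only through its DMSO libraries.

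Genes of steps after translation were listed in 4 groups. Of 10 genes of the ubiquitin-like conjugation system that directs IRG and GBP proteins to vacuoles, 6 rose and 1 fell, with a median of 0.36. These counts stand beside 27.3% of all tested genes called higher and 25.6% called lower. The rises were led by the LC3 and GABARAP family with Map1lc3a at 2.20 (adjusted p = 0.000330), Gabarap at 0.94 (adjusted p = 0.000842), Map1lc3b at 0.87 (adjusted p = 0.000587) and Gabarapl1 at 0.85 (adjusted p = 0.000981) in limma, and Atg5 fell by 0.40 (adjusted p = 0.0378 in limma). Of 9 partners that mark and clear such vacuoles, 6 rose and 1 fell, beside the same shares of all tested genes, with a median of 0.71. Calcoco1 had a log2 difference of 2.72 (adjusted p = 0.000174), Trim21 of 1.30 (adjusted p = 0.00577), Nbr1 of 1.08 (adjusted p = 0.000335) and the galectin Lgals3 of -0.90 (adjusted p = 0.0118) in limma.

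Of 5 genes of prenyl transferases, a class of enzymes that attach lipid anchors to proteins, 4 fell and 1 rose. Which of these enzymes act on Gbp2 in these cells was not tested. Their median was -0.53, and over all tested genes 25.6% were called lower and 27.3% higher. Rabggtb fell by 1.04 (adjusted p = 0.000690), Fntb by 0.55 (adjusted p = 0.00558), Rabggta by 0.53 (adjusted p = 0.00557) and Fnta by 0.53 (adjusted p = 0.00315) on the log2 scale in limma, whereas Pggt1b, a subunit of the enzyme that modifies GBPs with geranylgeranyl groups, rose by 0.28 (adjusted p = 0.0421 in limma). Of 8 inflammasome genes, 4 were tested and 2 rose, beside 27.3% of all tested genes. Il18 went from 24.98, 65.7, 13.9 and 4.67 to 383, 533, 239 and 139.9 (log2 difference 3.88, adjusted p = 0.000293 in limma), and Casp4, the sensor of bacterial lipopolysaccharide, rose by 1.40 (adjusted p = 0.0256 in limma) from a DMSO mean of 5.82, below the filter. All 10 genes of MEK-ERK output fell, with a median of -2.04, beside 25.6% of all tested genes called lower. The largest falls were those of the ETS factors Etv4 at -5.92 (adjusted p = 0.000201) and Etv5 at -4.82 (adjusted p = 0.000317) in limma. The feedback inhibitors Spry4 and Dusp6 followed at -3.61 and -2.51. This list was written with earlier results of these data known, so its count is not an independent check that the drug acted. Without the block for the cell line, Ifngr1, Irf1, Irf2, Pias1, Atg5, Trim21, Lgals3, Fntb, Pggt1b and Casp4 did not pass, with adjusted p of 0.0820 to 0.315 in limma. Atg12, Gabarapl2 and Tax1bp1, counted among the rises of the vacuole lists, did not pass either (adjusted p = 0.164, 0.251 and 0.111 in limma).

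**Figure D5:**
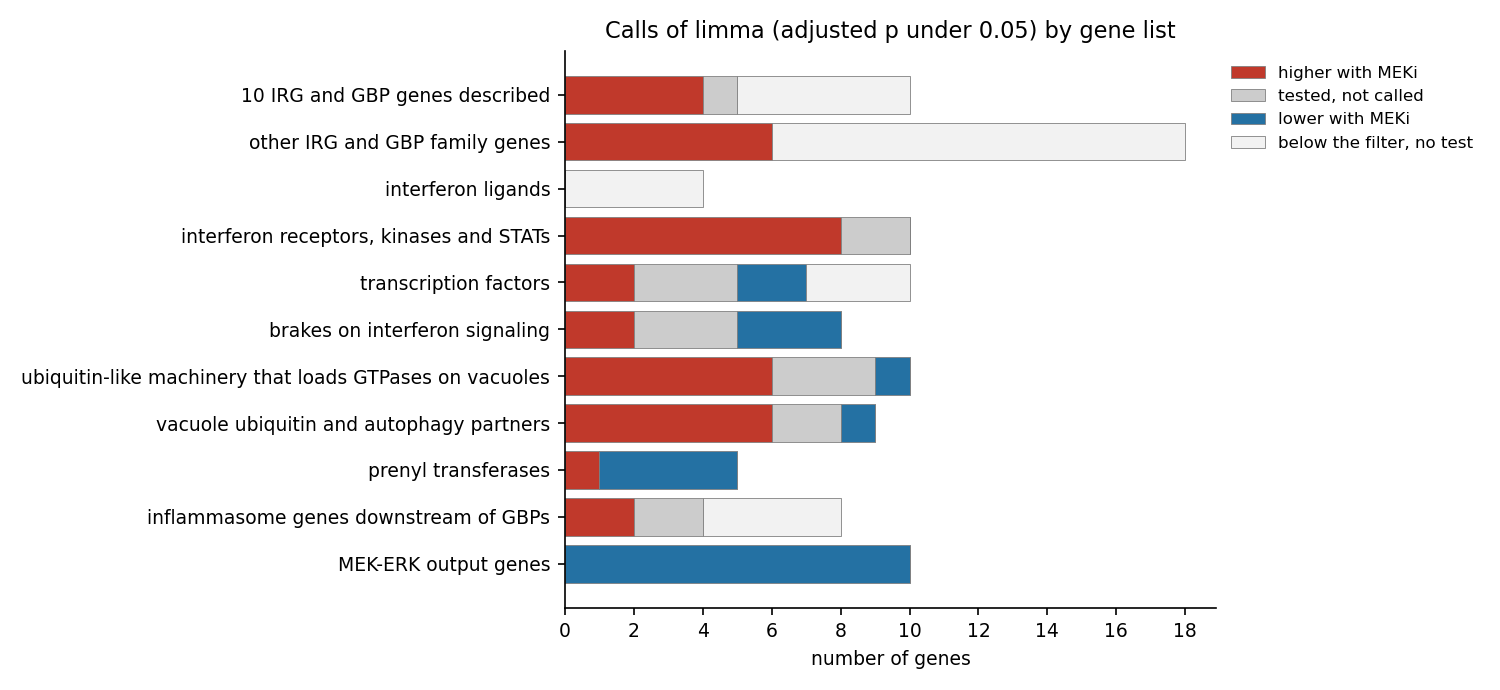
Number of genes in each fixed list that limma called higher (red) or lower (blue) with MEKi, did not call (gray) or could not test because they were below the filter (pale). Of the 10 genes described, 4 were higher, and of the MEK-ERK output genes 10 of 10 were lower.

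The labelled cell type was checked against markers. The keratin genes Krt7, Krt8, Krt18 and Krt19 and Cdh1 were abundant in every library, while Epcam was listed at 0 in lines #1, #5 and #10 and at 10.4 and 3.75 in line #3. The sum of 7 ductal markers was 221215 to 348774 with DMSO and 112485 to 220925 with MEKi, and 5 of the 6 tested fell, none of which passed without the block (adjusted p = 0.0504 to 0.167 in limma). Since leukocytes, endothelial cells and fibroblasts also use IRG and GBP genes, their marker sums stand beside the rises above. Leukocyte markers summed to 150.1 to 241 with DMSO and 236 to 516 with MEKi, and 1 of 4 tested rose. This was Csf1r, from 10.2, 1.05, 17.5 and 46.9 to 124, 14.2, 79.9 and 340.0 in lines #1, #3, #5 and #10 (log2 difference 2.83, adjusted p = 0.000697 in limma, 0.0891 without the block). The macrophage marker Cd68 was at 135 to 188 with DMSO and 129.8 to 228 with MEKi, Itgam reached 27.5, and Cd3e and Lyz2 were at 1.91 or lower. The general leukocyte marker Ptprc was at 10.6 ± 4.65 and 11.7 ± 6.03 (SD, n = 4 lines each). Endothelial markers summed to 30.9 to 54.6 and 62.7 to 831, and 1 of 3 tested rose. This was Tek, from 7.33, 21.5, 1.30 and 2.76 to 153, 805, 30.5 and 13.5 (log2 difference 3.77, adjusted p = 0.00150 in limma), which reached the filter only through its MEKi libraries. Kdr reached 63.3 and Cdh5 17.5. Fibroblast markers summed to 94.9 to 366 and 440.0 to 1258, and 1 of 5 tested rose. This was Col1a1, at 30.1 to 130.3 with DMSO and 360.4 to 1110 with MEKi (log2 difference 3.60, adjusted p = 0.000872 in limma, 0.00234 without the block). Pdgfra reached 105, Col3a1 97.2 and Dcn 36.6, and Lum was listed at 0 throughout. The acinar sum was 40.3 to 252 and 17.5 to 127, with Cpa1 at 0. Most of it was Cela1, at 24.8 to 247 with DMSO and 15.6 to 123 with MEKi. As the 1 acinar marker tested, Cela1 fell (log2 difference -0.73, adjusted p = 0.0257 in limma, 0.517 without the block). Over all tested genes 27.3% were called higher and 25.6% lower. The counts of leukocyte, endothelial and fibroblast markers that rose thus lie near the background. The part of these cell types in the GTPase results was not tested.

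The genes whose profile over the 8 libraries was most like that of the IRG genes were found by Pearson's r with the mean log2 profile of Irgm1, Irgm2, Igtp and Ifi47. They were Cnn1 (r = 0.993), a calponin of contractile fibers, Prkci (r = 0.991), an atypical protein kinase C, and Pmaip1 (r = 0.988), which encodes the BH3 protein NOXA. For Gbp2, the sole tested GBP of the 10, they were 9130019O22Rik (r = 0.973), Irak1bp1 (r = 0.971) and the interleukin 18 receptor gene Il18r1 (r = 0.954). These values describe 8 points that share 4 lines and 2 treatments, chosen as the highest among all tested genes.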

How the data were processed

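RNA of 4 primary murine PDAC lines, treated with DMSO or MEKi, was prepared by the authors with a stranded mRNA kit and sequenced. The submitters' processing notes name CASAVA 2.17, Salmon 0.12, DESeq2 1.18 and mm10. The deposited values are normalized counts per gene symbol, a signal that the authors had scaled to make libraries comparable, and the annotation they used is not given in the sources used here. Only 55.8% to 68.3% of values under 20 steps lay within 0.05 steps of a whole multiple, so whole reads were not recovered and count tests were not used.

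The values were taken as log2(value + 1) and fitted for genes with a mean of at least 10 with limma 3.58.1 in R 4.3.3 (lmFit, eBayes with trend, two-sided, cell line as a block, Benjamini-Hochberg adjustment over all tested genes, threshold 0.05). The fit was tested on simulated data. The labels give both libraries of a line its number, and their deviations from the treatment means correlated at 0.644, 0.647, 0.631 and 0.724 across genes. Differences between lines come from the moderated F test of the same fit. Python 3.11.15, numpy 2.4.6, pandas 2.3.3 and matplotlib 3.10.9 served for tables and plots. Gene positions and exonic lengths are from GENCODE M21 on GRCm38, and promoter sequences from RefSeq on GRCm38.p6.

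The 10 genes and all lists were chosen with earlier results of these data known. All 10 genes are named, as are relatives that passed the filter, up to 4 called genes with the largest difference per list, called genes against the majority of their list, Irf1 and Ifngr1, and the 3 genes most like each profile. Other genes were named after their values were seen. Alternatives were pseudocounts of 0.1 and 5, equal totals, quantile normalization, median centring, no filter, a filter at 50, no block, other eBayes settings and each line left out. Summing similar genes was added after seeing the data. All 8 columns of the table were used. Some items are not reported here.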

Additional observations from a re-analysis of the deposited data

Results flagged for a closer look

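Groups of 4 values were searched for a single value far from the other 3 over the 10 genes and the 6 tested relatives. Of 56 groups, 8 held one, where chance gives about 1 in 20 groups, or 2.8. Irgm1 stood at 3702 normalized counts with MEKi in line #3, against 2021 to 2112 in the other lines. Gbp9 stood at 964 in the same library, against 7.75 to 65.5 elsewhere. Gm5431 had a log2 difference of 0.31 in line #10, against 1.44 to 1.58 in the others. These 3 are close to the number that chance gives. The remaining 5 come from 2 genes listed at 0 in the other 3 lines, where any value above 0 stands apart, so the rate of chance does not apply to them. Gbp2b was at 3.88 with DMSO and 7.84 with MEKi in line #1, a log2 difference of 0.86, and at 0 in the other lines. Iigp1 was at 1.04 with DMSO in line #3, a log2 difference of -1.03, which rests on about 1 read.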

How the results depend on the processing

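Irgm1, Irgm2 and Igtp were called higher in every alternative run on each gene alone. Their adjusted p in limma was 0.000227 to 0.00489, 0.000504 to 0.00636 and 0.001275 to 0.0310. Igtp and Irgm2 summed were also called higher (adjusted p = 0.000596 in limma). Ifi47 was called in all but the fit without the cell line as a replicate block (adjusted p = 0.270 in limma), and Gbp2 in none (0.0596 to 0.423). The number of the 10 genes called higher was 3 to 5, with Tgtp1 added without a filter (adjusted p = 0.0259 in limma). No result reversed. The number that differ between lines went from 2 to 1 with the filter at 50, quantile normalization and similar genes summed, and was 1 with any line left out, and without a filter the 2 were Ifi47 and Gbp2b. Over all genes that number was 1879 without a trend in eBayes, 2862 without a filter and 2028 to 4558 with a line left out, against 4391. Without the block, which pairs the libraries of a line, genes called fell to 2205 higher and 2347 lower, and the listed genes called higher from 33 to 18. Equal totals moved the median of all genes by 0.13 and gave 5333 higher and 3285 lower, quantile normalization moved it by -0.10, and centring gave 3848 higher and 4492 lower, against 4341 and 4075. The causes were not tested. Leaving out a line ended the calls of Gbp4 (line #1, #3, #5 or #10), Gm5431 (line #1, #3 or #5), Irf1 and Ifngr1 (line #1, #5 or #10), with adjusted p in limma up to 0.0843, 0.107, 0.178 and 0.118. Gbp4, Gm5431 and Ifngr1 also lost theirs without a filter (0.0609, 0.0695 and 0.0521), Gbp4 and Gm5431 with quantile normalization (0.0872 and 0.131) and Ifngr1 without a trend in eBayes (0.0730). Depth limits Iigp1, Gbp2b, Gbp3, Gbp7 and Tgtp1, which have DMSO libraries at 0 or under the floor of 3 reads.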

Other observations

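Below the filter, 2 more genes of the chromosome 5 GBP cluster had the pattern of Gbp9 and Gbp4, an observation made after their values were seen. Gbp8 was listed at 0 with DMSO in lines #1, #5 and #10 and at 2.37 in line #3, and stood at 4.20, 53.8, 4.45 and 5.65 normalized counts with MEKi in lines #1, #3, #5 and #10. Gbp6 was at 0, 4.05, 1.61 and 4.24 with DMSO and at 2.54, 21.9, 2.48 and 9.04 with MEKi. Line #3 was thus the highest MEKi library for Gbp4, Gbp6, Gbp8 and Gbp9. Exons of Gbp4, Gbp8 and Gbp9 overlap in the annotation, by 60 to 61 bases, and 31.1% of the 31-base words of Gbp8 and 74.2% of those of Gbp6 occur in other genes, so these counts may not be independent of each other.

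F830016B08Rik, an IRG gene close to Iigp1, was at 8.53, 9.36, 0 and 3.84 normalized counts with DMSO and at 13.7, 14.0, 13.6 and 11.5 with MEKi, higher in 4 of 4 lines, while Iigp1 stayed at or under the floor. Gbp10 was listed at 0 in every library.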
